A study of Mus musculus with 346 samples.

Results

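The Hox genes encode homeodomain transcription factors that lie in 4 clusters, named a to d, and are numbered into paralog groups by their place in the cluster. All genes of the expression table whose symbol is Hox followed by a cluster letter and a number were taken, which gave 23 of 20474 genes: 8 of cluster a, 8 of cluster b, 3 of cluster c and 4 of cluster d, spread over paralog groups 1 to 9. The mouse annotation holds 39 such genes, and the other 16 are not analysed here. Each of the 23 genes was detected in at least 1 cell.

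In the embryo, Hox genes of low paralog number are switched on early and reach far forward along the body axis, while genes of higher number are switched on later and stay further back, so that the set of active genes marks the position of a cell. In the neural tube they mark the segments of the hindbrain and the spinal cord behind it. In the trunk mesoderm and the connective tissue around the gut they mark levels of the gut tube, and retinoic acid from nearby tissue is a known inducer of the genes of low number. Hox proteins bind DNA together with the Pbx and Meis homeodomain cofactors.

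Single cells were sorted for green fluorescence from mouse embryos with a Prox1-EGFP transgene and sequenced with Smart-seq2, which reads whole transcripts. Prox1 is a homeobox factor of the early liver and pancreas, and the reporter marks any cell in which its regulatory sequence is active. The groups were foregut at embryonic day 8.5 (82 cells, plate 1A), dorsal pancreatic bud (86 cells, plates 2A and 2B), ventral pancreatic bud (27 cells, plate 3) and liver bud (78 cells, plate 5A) at day 10.5, and pancreas at embryonic stage E14.5 (73 cells, plate 4A). All groups carry the same transgene. No animal or litter is named, so a group counts as 1 sample and no difference is tested, and plate and group cannot be told apart outside the dorsal bud. The series text states 452 cells, and the groups above hold those that passed the submitters' quality check, of which 202 had a Hox gene.

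The plates held more than the labelled tissue, and 5 of the 6 were split by 1 gene each. On the scale of log2(normalized reads + 1), the limits were 5 for Rfx4 in the foregut, Epcam in the dorsal bud and Col1a1 in the E14.5 pancreas, and 10 for Afp in the liver bud. Rfx4 is a neural tube factor, Epcam an epithelial adhesion protein, Afp a fetal liver protein and Col1a1 a collagen of connective tissue. The cells nearest to the limits were at 6.0 and 3.87 for Rfx4, at 5.97 and 2.15 for Epcam on plate 2A, at 5.48 and 1.98 for Epcam on plate 2B, at 11.60 and 6.57 for Afp, and at 8.47 and 0 for Col1a1. A marker or Hox gene counted as detected at 5 or more normalized reads.

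Markers of the labelled tissue were absent from much of the foregut and E14.5 plates. The label foregut endoderm did not hold for the 51 Rfx4-high cells, of which 49 had at least 3 of 11 neural tube markers and 0 had 3 of 6 epithelial markers. Among the 31 Rfx4-low cells, 12 had at least 3 epithelial, 11 at least 3 cardiac and 7 at least 3 neural tube markers. The label pancreatic epithelium did not hold for the 58 Col1a1-high cells, all of which had at least 3 of 11 mesenchyme markers, with 0 epithelial markers detected in any of them. Rfx4 is itself among the 11 neural tube markers and Col1a1 among the 11 mesenchyme markers, so the splits fixed part of these counts. At least 3 mesenchyme markers were also found in 17 of the 20 Epcam-low cells of the dorsal bud and in 17 of the 32 Afp-low cells of the liver bud. Of these 32, 12 had at least 3 cardiac markers. Prox1 itself was detected in 10 of 58 Col1a1-high cells against 14 of 15 Col1a1-low cells. Median recovered reads per cell ran from 760738 to 2657340 over the 11 populations, highest in the liver bud, and median genes per cell from 2303 to 5970.

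The upstream sequences of Hoxb1, Hoxa2 and Hoxa5 are shown because these genes stand for different patterns in the populations: Hoxb1 for the dorsal bud and foregut, Hoxa2 for cells of both the neural and the mesenchymal kind, and Hoxa5 for the mesenchyme. Each run is the 250 bases before the RefSeq start site (GRCm38.p6), written in the direction of transcription, with capitals for matches to TGATNNAT, the letters of a joint Hox and Pbx site, or TGACAG, those of a Meis site, on either strand. They lie at chr11:96365508-96365757 on the plus strand, chr6:52164832-52165081 on the minus strand and chr6:52204588-52204837 on the minus strand.
Hoxb1: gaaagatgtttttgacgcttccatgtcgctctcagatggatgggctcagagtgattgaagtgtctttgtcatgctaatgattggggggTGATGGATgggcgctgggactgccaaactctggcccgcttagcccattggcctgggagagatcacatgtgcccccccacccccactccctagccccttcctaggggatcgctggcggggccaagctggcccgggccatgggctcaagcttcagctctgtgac
Hoxa2: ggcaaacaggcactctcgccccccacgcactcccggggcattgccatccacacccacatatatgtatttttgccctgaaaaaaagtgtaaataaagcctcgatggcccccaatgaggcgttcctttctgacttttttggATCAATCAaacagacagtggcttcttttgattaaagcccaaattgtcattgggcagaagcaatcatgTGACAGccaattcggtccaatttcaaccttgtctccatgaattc
Hoxa5: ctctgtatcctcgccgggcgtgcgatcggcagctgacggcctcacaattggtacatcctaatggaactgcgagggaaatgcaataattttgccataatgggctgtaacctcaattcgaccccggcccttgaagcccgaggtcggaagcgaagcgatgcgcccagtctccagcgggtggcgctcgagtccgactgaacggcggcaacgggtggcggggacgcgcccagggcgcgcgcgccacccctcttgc
The Hoxb1 run holds a TGATNNAT match at -162, and the Hoxa2 run holds one at -111 and a TGACAG match at -44. Of the 14 Hox genes with a RefSeq promoter in the table used, which reaches from 250 bases before to 50 after the start, 3 held TGATNNAT (21.4%), against 8.85% of 32851 promoters of that length. TGACAG was present in 2 of the 14 (14.3%) and in 19.2% of all promoters. The third gene with a TGATNNAT match was Hoxb8, and the other gene with TGACAG was Hoxa3. The median share of G and C was 56.8% in the 14 Hox promoters and 52.7% in all promoters. A match describes the letters and not a bound site.

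Hox transcripts separated the populations into those with many genes per cell, those with few and those with 0. All 51 Rfx4-high cells of the foregut plate had at least 1 Hox gene, with a mean of 5.45 ± 1.65 genes per cell (SD over cells). Epcam-low cells of the dorsal bud had the most, with 9.14 ± 4.60 in the 7 cells of plate 2A and 7.92 ± 2.29 in the 13 cells of plate 2B, and the Col1a1-high cells of E14.5 had 3.10 ± 1.56. In contrast, 0 of 27 ventral bud cells and 0 of 46 Afp-high liver cells had a Hox gene, which by the limit of 3 counts allows shares of up to 11.1% and 6.52%. In these 73 cells not a single read of any of the 23 genes was present. SDs describe the spread between cells, and intervals and limits cover counting error only, since PCR reads are not independent molecules.

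**Figure D1:**
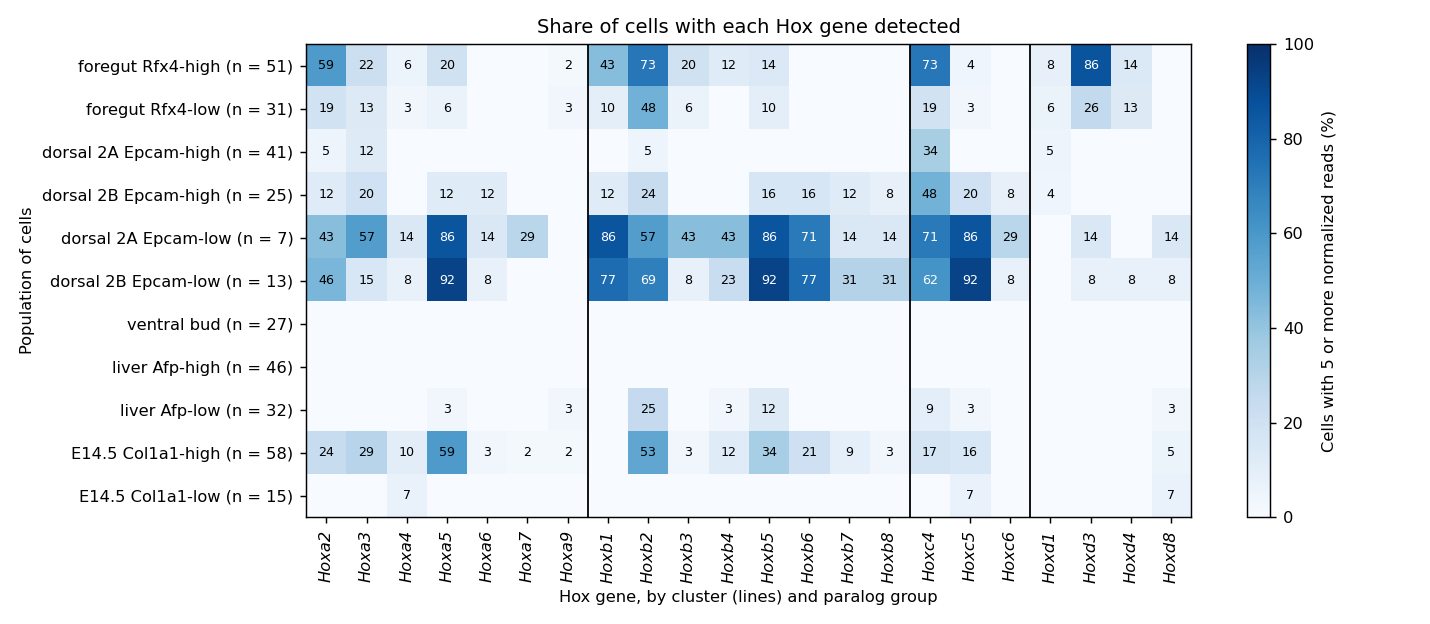
Share of cells (%, color and number) with each of 22 Hox genes (x axis) at 5 or more normalized reads in the 11 populations (y axis). Squares with no number are 0, as in the whole rows of the ventral bud and the Afp-high liver cells.

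Between these extremes lay the epithelial cells of the dorsal bud and the remaining cells of the foregut and liver plates. A Hox gene was detected in 23 of 41 Epcam-high cells of plate 2A (56.1%, exact Clopper-Pearson 95% interval 39.7 to 71.5) and in 16 of 25 of plate 2B (64%, 42.5 to 82). The Rfx4-low foregut cells had a share of 67.7% (21 of 31, interval 48.6 to 83.3), the Afp-low liver cells 40.6% (13 of 32, 23.7 to 59.4) and the Col1a1-low cells of E14.5 20% (3 of 15, 4.33 to 48.1). The median Hox number was 1 in the Rfx4-low cells and in the Epcam-high cells of each dorsal plate, and 0 in the Afp-low and Col1a1-low cells. These ranges overlapped those of the Hox-rich populations, since single Rfx4-low cells reached 8 genes and single Epcam-high cells of plate 2B reached 12.

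Depth differed between the plates, and the order of the populations by mean Hox number was the same at equal depth. By share of cells with a Hox gene the order changed. The Rfx4-low cells were at 58.1% after thinning, below the 64% of the Epcam-high cells of plate 2B. With every cell thinned to 500000 reads and 3 reads counted as detected, the Rfx4-high cells had 5.43 ± 1.64 Hox genes, the Epcam-low cells 9.14 ± 4.81 on plate 2A and 7.85 ± 2.23 on plate 2B, and the Col1a1-high cells 3.07 ± 1.57. The ventral bud and the Afp-high liver cells stayed at 0. The ventral cells, with a median of 3695 genes, were shallower in genes than the Epcam-high dorsal cells, with 4543 and 5374, while the Col1a1-high cells had only 2748.5 and the Rfx4-high cells 5970. The part of RNA content in these differences was not tested.

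**Figure D2:**
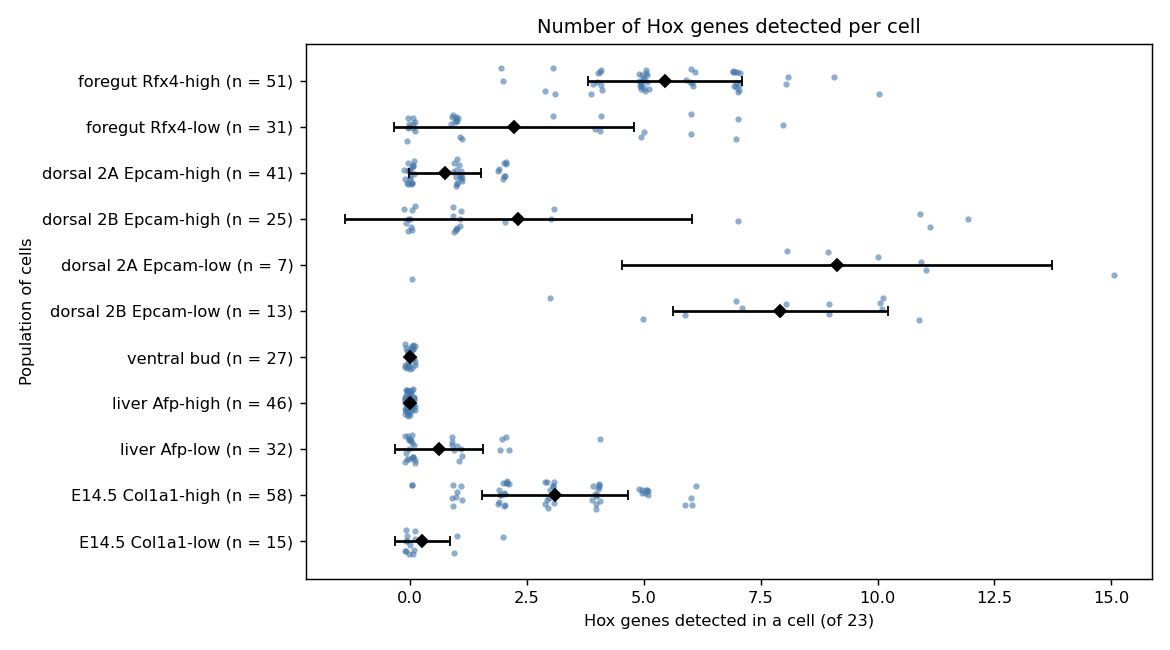
Number of the 23 Hox genes detected in each cell (x axis, points spread slightly) in the 11 populations (y axis); diamonds and bars are means and SDs over cells. Epcam-low dorsal cells reach 15 genes, and all ventral bud and Afp-high liver cells sit at 0.

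In the Rfx4-high cells of the foregut plate, genes of paralog groups 1 to 4 were the most frequent. Hoxd3, a group 3 gene known from the hindbrain and neck vertebrae, was present in 44 of 51 cells (86.3%), with levels from 0 to 8.28 and a median of 5.94. It was high in nearly all of these cells, and its values in the 44 ran from 4.63 upward.

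Genes of groups 2 and 4 came next. Hoxb2, a hindbrain gene known as a target of Hoxb1, was detected in 37 of 51 cells (72.5%), with a median of 3.58 and a highest value of 5.63. Hoxc4 was detected in the same number of cells, with a median of 4.62 and a highest value of 6.96. Hoxa2, which patterns the hindbrain and the second branchial arch, was detected in 30 of 51 cells (58.8%), with a median of 4.86 and a highest value of 7.64. These 3 genes were detected at middle levels in most cells and were below the detection limit in the rest, so that their values spanned the whole range from 0. At least 1 read was present in 47 of 51 cells for Hoxb2, in 41 for Hoxc4 and in 30 for Hoxa2.

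Hoxb1, known for the fourth hindbrain segment, divided the Rfx4-high cells. It was detected in 22 of 51 cells (43.1%), in which it ran from 3.59 to 8.05, and its median over all 51 was 0. Hoxd3 was found in 19 of the 22 cells with Hoxb1 and in 25 of the 29 without it, and Hoxb2 in 15 of 22 with and 22 of 29 without. The shares of both genes were thus close with and without Hoxb1. Beyond group 4 the counts were lower: Hoxa5 was found in 10 cells, Hoxb5 in 7 and Hoxc5 in 2, no gene of groups 6 to 8 in any cell, and Hoxa9 in 1.

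Rfx4-low cells of the same plate carried fewer genes at lower mean levels, and those with Hox genes mostly had high Crabp1, a retinoic acid binding protein of the hindbrain and neural crest. Hoxb2 was the most frequent gene, in 15 of 31 cells (48.4%), with levels from 0 to 5.67 and a median of 2.48, and Hoxd3 was found in 8. All 18 Rfx4-low cells with Crabp1 at a log2 level of 5 or above had a Hox gene, with a mean of 3.56 ± 2.57, against 3 of 13 below it, with a mean of 0.38 ± 0.87. Of the 18 cells, 7 had at least 3 neural tube markers and 7 had at least 3 cardiac markers, and of the 13, 10 had at least 3 epithelial markers. The 11 cells with at least 2 epithelial markers and Crabp1 below 5 had 1 Hox detection in each of 2 cells.

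Set side by side, 8 of the 23 Hox genes reached a mean of 1 in at least 1 of the foregut populations, and 5 in both. For a gene that passed through 1 population alone, the filter fixed the direction of any difference. Of the 8, 6 were higher in Rfx4-high cells by at least 1 on the mean log2 scale and 0 were lower, while 16.1% of the 9970 genes measured were higher and 10.2% lower. The difference was largest for Hoxd3 (means of 5.56 ± 2.23 and 1.46 ± 2.56, difference 4.11). Hoxc4 differed by 2.61, Hoxa2 by 2.18, Hoxb1 by 1.98 and Hoxb2 by 1.09, and Hoxa3 and Hoxa5 by less than 1. The median over the 8 was 2.08, against 0.16 over all genes. The count of 6 was 10 with a pseudocount of 0.1 and 2 with 10. Neural tube markers, Rfx4 among them, moved with it. At least 3 were found in 49 of 51 Rfx4-high and 7 of 31 Rfx4-low cells. The part of these markers in the difference was not tested.

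**Figure D3:**
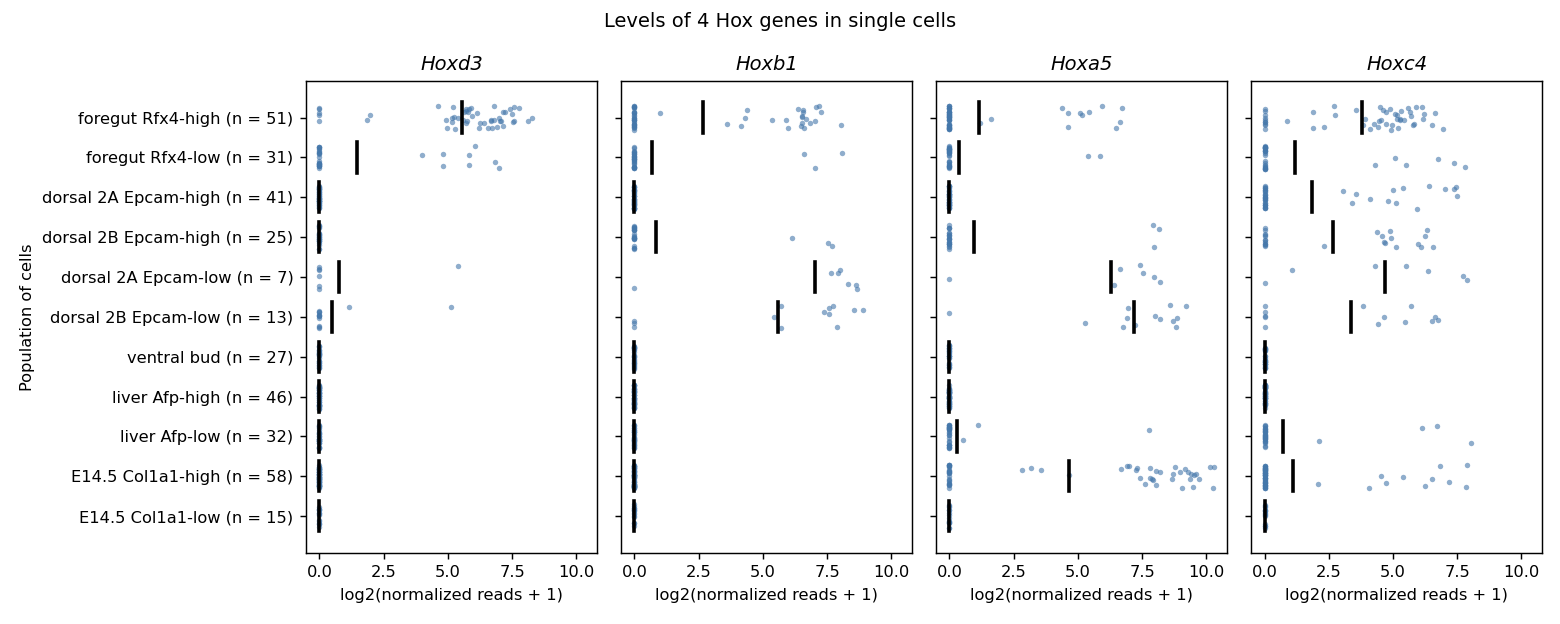
Level of 4 Hox genes in each cell (x axis, log2(normalized reads + 1), points spread slightly on the y axis) in the 11 populations; black bars are means. Hoxd3 is high in Rfx4-high cells, Hoxb1 in these and the Epcam-low dorsal cells, Hoxa5 in Epcam-low and Col1a1-high cells, and Hoxc4 also in Epcam-high cells.

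The Epcam-low cells of the dorsal bud had the widest Hox set, running from group 1 to group 8 and led by the group 5 genes. Hoxa5, known from the mesenchyme of lung and gut, was detected in 18 of 20 cells over both plates (90%), with a median of 7.46 and a highest value of 9.21. Hoxb5, known from the enteric nervous system and gut mesenchyme, was in 18 of 20 cells (median 6.77, highest 8.82), and so was Hoxc5 (median 6.56, highest 9.0). Group 5 was thus nearly complete, with 54 of the 60 possible detections. It was as frequent on each plate: 6 of 7 cells on plate 2A and 12 of 13 on plate 2B for each of the 3 genes.

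Hoxb1 was as prominent as the group 5 genes in these cells. It was found in 16 of 20 (80%), with a median of 7.61 and a highest value of 8.90, against 22 of 51 Rfx4-high cells. Hoxb6, a group 6 gene of trunk mesoderm, was found in 15 of 20 cells (75%), with a median of 5.25 and a highest value of 8.53.

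Hoxb2 and Hoxc4 were each found in 13 of the 20 Epcam-low cells (65%), with medians of 3.68 and 4.54. Hoxa2 was found in 9, Hoxa3 and Hoxb4 in 6 each, Hoxb7 and Hoxb8 in 5 each, Hoxb3 in 4 and Hoxc6 in 3. Hoxa7 was found in 2 cells, both on plate 2A. Hoxd3, so frequent in the Rfx4-high cells, was found in 2 of 20, and Hoxd1 and Hoxa9 in 0. The plates differed most for Hoxa3 (4 of 7 and 2 of 13) and Hoxb3 (3 of 7 and 1 of 13), with intervals that overlapped (18.4 to 90.1% and 1.92 to 45.4% for Hoxa3). A single Epcam-low cell of plate 2A had 0 Hox genes.

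Epcam-high cells of the dorsal bud, the pancreatic epithelium, had few Hox genes, and the main gene among them was Hoxc4. It was detected in 14 of 41 cells on plate 2A (34.1%, interval 20.1 to 50.6) and 12 of 25 on plate 2B (48%, 27.8 to 68.7), with levels from 0 to 7.50 and from 0 to 6.57. Its mean over the 66 cells was 2.17 ± 2.76. Other genes present were Hoxa3 with 10 of 66 cells and Hoxb2 with 8.

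The few Epcam-high cells with many Hox genes also had mesenchymal transcripts and fewer epithelial markers. At least 5 Hox genes were detected in 4 of the 66, all on plate 2B, with 12, 11, 11 and 7 genes, and the same 4 cells were those with at least 3 mesenchyme markers (8, 5, 7 and 5 of 11). Their Hoxb6 levels were 6.18, 6.55, 6.65 and 7.59 and their Hoxc5 levels 8.59, 5.93, 6.58 and 6.82, within the range of the Epcam-low cells. Their median was 6344.5 genes and 1172870 reads, against 5347 genes and 871708 reads in the other 21 Epcam-high cells of that plate. These 4 cells had 3, 3, 2 and 1 of 6 epithelial markers, Epcam included, against a median of 6 in those 21. Whether a well held more than 1 cell was not tested. The other 62 Epcam-high cells had a mean of 0.77 ± 0.82 Hox genes and at most 3. Among them Hoxc4 was in 22, Hoxa3 in 8, Hoxa2 in 5, Hoxb2 in 4, Hoxd1 in 2 and Hoxc5 in 1, and Hoxa5, Hoxb1, Hoxb5 and Hoxb6 were in 0.

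Hoxc4 and Hoxa3 were spread unequally over the epithelial cells. Of 44 Epcam-high cells with fewer than 3 endocrine markers, 23 had Hoxc4, 4 of these being the cells with mesenchyme markers, and 3 had Hoxa3, 2 of them among those same 4. Of the 22 with at least 3 endocrine markers (such as Neurog3 and Chga), 3 had Hoxc4 and 7 had Hoxa3. Hoxc4 was thus the more frequent of the pair in the first set and Hoxa3 in the second, over few cells. Hoxc4 was in 15 of 34 cells with Pdx1, the pancreatic ParaHox factor, and in 11 of 32 without it, with those 4 among the 11.

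On each dorsal plate most of the Hox genes measured were higher in Epcam-low than in Epcam-high cells, a direction that the filter largely fixed: 1 of the 16 measured on plate 2A and 4 of the 13 on plate 2B reached a mean of 1 in both populations. On plate 2A 16 of 16 measured genes were higher by at least 1, where 30.6% of all measured genes were higher and 18% lower. On plate 2B 10 of 13 were higher and 0 lower, where 25.8% of all genes were higher and 18.2% lower. The median Hox difference was 2.17 on plate 2A and 2.06 on plate 2B, and that of all genes 0.38 and 0.27. Hoxb1 differed by 7.02 on plate 2A (7.02 ± 3.12 in Epcam-low and listed at 0 in Epcam-high cells) and by 4.72 on plate 2B (5.57 ± 3.35 and 0.85 ± 2.37). Hoxa5 differed by 6.30 and 6.23. The exceptions on plate 2B were Hoxa3 (difference -0.18), Hoxc4 (0.71) and Hoxb7 (0.90), and all 3 Epcam-high cells with Hoxb7 were among the 4 with mesenchyme markers. With a pseudocount of 10, 9 genes were higher on plate 2A and 6 on plate 2B.

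The ventral bud, an epithelium like the Epcam-high dorsal cells, lacked the Hoxc4 signal. Of its 27 cells, all had at least 3 epithelial markers and Prox1, 18 had at least 3 hepatoblast markers, and 0 had Hoxc4, against 26 of 66 Epcam-high dorsal cells (39.4%, interval 27.6 to 52.2). Hoxc4 was the only Hox gene to reach a mean of 1 here, and it was lower in the ventral bud by 2.17. It reached that mean in the dorsal cells only, so the filter fixed the direction. Of all measured genes 34.6% were lower and 4.64% higher. The median difference of all genes was -0.64. With a pseudocount of 10, 0 Hox genes were lower, with 0.1, 3 were, and against plate 2B alone, 5 were. Fewer genes were detected per ventral cell, and the 2 buds were on separate plates, which cannot be told apart from the tissue.

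In the liver bud Hox transcripts were confined to the Afp-low cells among the 78 analysed. They were found in 13 of 32 such cells, as 20 detections of 8 genes, and 8 of the 13 cells had a single Hox gene. Hoxb2 was the most frequent, in 8 cells (25%), with levels from 0 to 6.04, followed by Hoxb5 in 4, with values of 5.91, 7.06, 8.10 and 9.16, and Hoxc4 in 3, with values of 6.15, 6.70 and 8.05. The richest cell had 4 genes, Hoxa5 at 7.77, Hoxb2 at 4.42, Hoxb5 at 7.06 and Hoxc5 at 9.81. Hoxd8 at 9.31 and Hoxa9 at 6.84 each stood in 1 cell. Detected values ran from 2.78, for Hoxb4 in 1 cell, to the 9.81 of Hoxc5. With reads below the detection limit counted too, 17 of the 32 cells had a Hox read. No cell had more than 4 genes detected.

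Within the Afp-low cells, a Hox gene was found in 7 of 17 cells with at least 3 mesenchyme markers and in 6 of 15 with fewer. Of the 12 cells with at least 3 cardiac markers, 1 had a Hox gene, Hoxb2. Against the Afp-high cells, Hoxb2 was the 1 Hox gene measured, and it was higher by 1.41. It reached a mean of 1 in the Afp-low cells only, so the filter fixed the direction. Of all measured genes 10.1% were higher and 44.6% lower, and the median of all genes was -0.84. Afp-high cells had more genes per cell (3102.5 against 2303), and the part of depth was not tested. With a pseudocount of 10 in place of 1, 0 Hox genes were higher, and with 0.1, 3 were.

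At E14.5 the Col1a1-high cells had a narrower mesenchymal set, led by Hoxa5 and Hoxb2. Hoxa5 was detected in 34 of 58 cells (58.6%), with levels from 0 to 10.30 and a median of 6.78. Hoxb2 was detected in 31 cells (53.4%), with a median of 3.10 and a highest value of 6.90. Hoxb5 was found in 20 cells (34.5%), Hoxa3 in 17 (29.3%), Hoxa2 in 14 (24.1%), Hoxb6 in 12 (20.7%), Hoxc4 in 10 (17.2%) and Hoxc5 in 9 (15.5%).

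Hoxb1, detected in 16 of 20 Epcam-low dorsal cells, was found in 0 of the 58 Col1a1-high cells, which allows a share of up to 5.17%. Hoxd8 was found in 3, and Hoxc6, Hoxd1, Hoxd3 and Hoxd4 in 0. A Hox gene was present in 10 of 10 Col1a1-high cells with Prox1 (mean 3.60 ± 1.35) and in 46 of 48 without it (3.00 ± 1.60). The Col1a1-low cells, of which 13 of 15 had at least 3 epithelial markers, had Hox genes in 3 cells, among them Hoxa4 at 5.63, Hoxc5 at 8.25 and Hoxd8 at 6.30. Hoxc4 was listed at 0 in all 15 of them.

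None of the 8 Hox genes measured at E14.5 reached a mean of 1 in the Col1a1-low cells, so the filter fixed the direction. Of these 8, 7 were higher in Col1a1-high than in Col1a1-low cells and 0 lower, where 19.5% of all measured genes were higher and 31.3% lower. The median was 1.78 over the 8 and -0.32 over all genes, and with a pseudocount of 10 the count was 4. Hoxa5 differed by 4.66, Hoxb2 by 2.58 and Hoxb5 by 2.51, each listed at 0 in the 15 Col1a1-low cells. No epithelial marker was detected in a Col1a1-high cell, and Col1a1-low cells had more genes per cell (3420 against 2748.5). The part of depth in the difference was not tested.

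The paralog profile differed between the Rfx4-high neural cells and the Epcam-low dorsal and Col1a1-high cells in the highest group that each cell carried. In Rfx4-high cells group 2 was present in 90.2% of cells, group 3 in 94.1%, group 4 in 76.5%, group 5 in 31.4% and group 6 in 0%. In Epcam-low dorsal cells the shares were 80%, 40%, 80%, 95% and 80% over the same groups, with 30% for each of groups 7 and 8. In Col1a1-high cells they were 62.1%, 31%, 36.2%, 77.6% and 22.4%, so that group 5 led by share of cells. The groups hold unequal numbers of genes here: 2 in group 2, 3 in group 5 and 4 in group 4. Over all pairs of gene and cell, detection in Col1a1-high cells was 38.8% for group 2 and 36.2% for group 5. In Rfx4-high cells it was 65.7% for group 2 and 42.5% for group 3, and in Epcam-low dorsal cells 55% for group 2 and 90% for group 5.

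**Figure D4:**
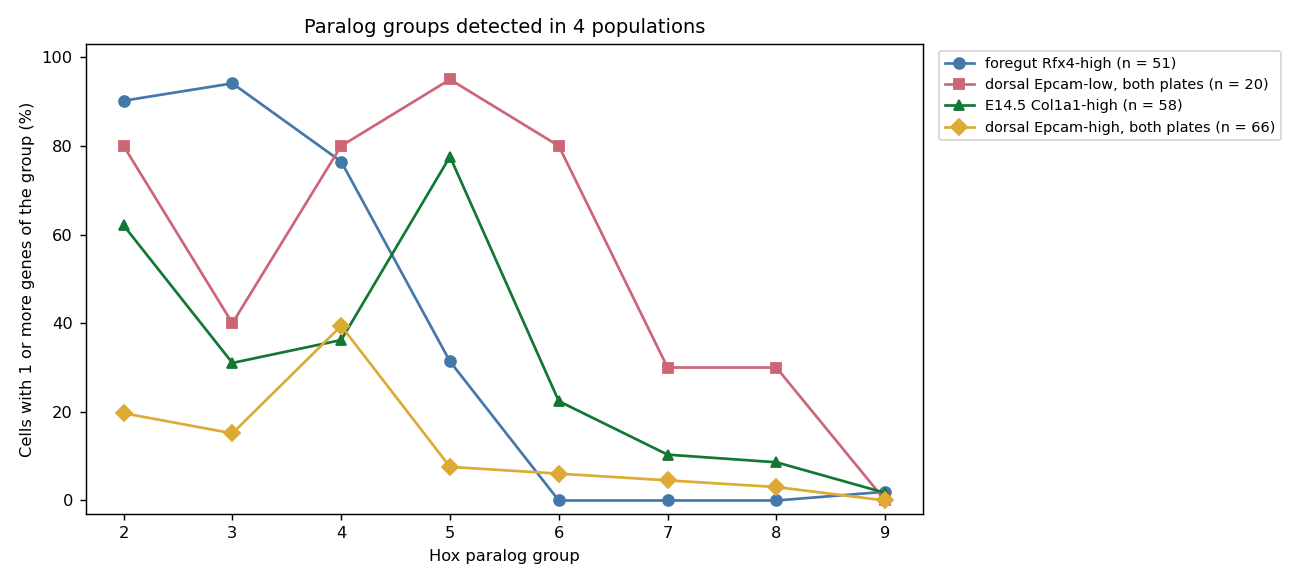
Share of cells (y axis, %) with at least 1 gene of each Hox paralog group from 2 to 9 (x axis) in 4 populations. The Rfx4-high line falls from 94.1% at group 3 to 0% at group 6, while the Epcam-low dorsal and Col1a1-high lines peak at group 5 with 95% and 77.6%. The groups hold unequal numbers of genes.

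Among cells with a Hox gene, the median of the highest group was 4 in Rfx4-high cells, 6 and 7 in Epcam-low cells of plates 2A and 2B, 5 in Col1a1-high cells, and 4 in Epcam-high cells of each dorsal plate. A group of 6 or above was reached by 1 of 51 Rfx4-high cells, the cell with Hoxa9, by 17 of 20 Epcam-low dorsal cells (85%) and by 22 of 58 Col1a1-high cells (37.9%). The 4 of 66 Epcam-high cells that reached it were the 4 with mesenchyme markers. In the Afp-low liver cells the median was 4, as in Rfx4-high cells, and 2 of 32 reached group 6 or above. Afp-low cells with at least 3 mesenchyme markers also had a median of 4. Tissue, plate and stage differ together between these populations and cannot be told apart here.

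**Figure D5:**
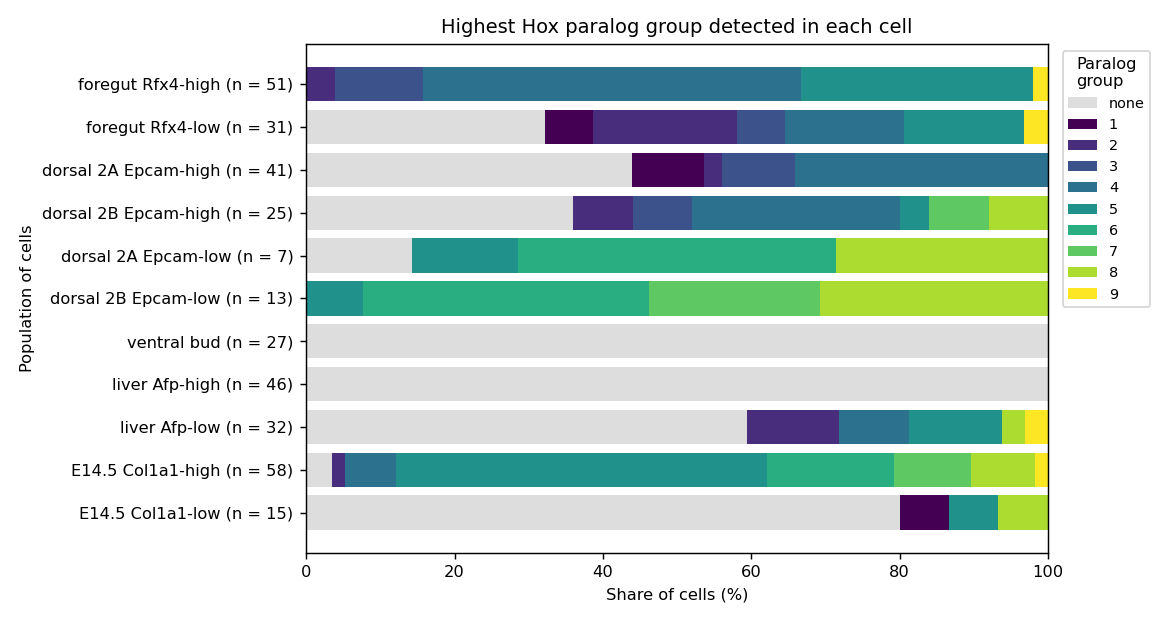
Share of cells (x axis, %) by the highest Hox paralog group detected in each cell (color; gray is none) in the 11 populations (y axis). Most Rfx4-high cells end at groups 4 and 5, while most Epcam-low dorsal cells end at groups 6 to 8.

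By cluster, the d genes were detected mostly in the neural cells, largely as Hoxd3, and the b genes were most numerous in the dorsal mesenchyme. Cluster d was detected in 44 of 51 Rfx4-high cells (86.3%), in 5 of 20 Epcam-low dorsal cells (25%), in 3 of 66 Epcam-high cells (4.55%) and in 3 of 58 Col1a1-high cells (5.17%). Cluster b had 4.10 ± 1.65 of its 8 genes per Epcam-low dorsal cell, 1.61 ± 0.98 per Rfx4-high cell and 1.36 ± 0.97 per Col1a1-high cell. Cluster a had 2.30 ± 1.34, 2.00 ± 0.89 and 1.36 ± 1.15 of its 8 genes in the same order. Epcam-high dorsal cells had cluster c in 26 of 66 (39.4%) and cluster b in 8 (12.1%). The cluster counts rest on the rows of the table, which are not the full clusters.

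Set against the dorsal mesenchyme, the E14.5 mesenchyme and the Afp-low liver cells had lower levels of many Hox genes, and of most genes of the table. Both comparisons use the same 20 Epcam-low dorsal cells. Col1a1-high cells of E14.5 were lower by at least 1 for 8 of 14 measured Hox genes and higher for 0, with 62.2% of all genes lower and 5.63% higher, and the medians were -1.22 for the Hox genes and -1.38 for all genes. Only 1 of the 14 Hox genes measured in the liver comparison reached a mean of 1 in both populations, so the filter largely fixed its direction. Afp-low liver cells were lower for 14 of 14, with 72.1% of all genes lower and 3.77% higher, and medians of -2.30 and -1.71, and with a pseudocount of 10 the count was 7. The counts for E14.5 are close to the background, so single genes say more: Hoxb1 was lower by 6.08, Hoxc5 by 4.73 and Hoxb5 by 3.68, while Hoxa3 differed by 0.27 and Hoxb2 by -0.71. Under median-of-ratios scaling the median of all genes was -1.56 for E14.5 and -1.93 for the liver.

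Levels of different genes can be set side by side only per length, here as mean normalized reads per kilobase of exon. In Rfx4-high cells Hoxa2 had 22.1, followed by Hoxd3 with 20.7, Hoxb1 with 16.7 and Hoxc4 with 11.3. In Epcam-low dorsal cells over both plates the order was Hoxa5 with 119, Hoxb1 with 81.8, Hoxb5 with 48.7, Hoxc5 with 46.5 and Hoxb6 with 38.9. In Col1a1-high cells Hoxa5 had 131, Hoxa2 35, Hoxb5 24.1 and Hoxc5 19.6. Hoxb2, detected in 53.4% or more of the cells of each of these 3 populations, was low per length, with 3.84, 4.40 and 5.08. These are means over cells without an error over animals.

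Some members cannot be read apart from their neighbors, since Smart-seq2 libraries do not keep the strand. Of the 3488 exon bases of Hoxb2 (GRCm38, chr11:96350525-96354012), 953 are shared with the antisense RNA Hoxb3os, and of the 4251 of Hoxb3, 2250. Hoxd3 (chr2:74711927-74748442) shares 388 of 4191 with Hoxd4 and 347 with Hoxd3os1. Hoxc5 shares 166 of 3089 with Hoxc10, and its gene model, like that of Hoxa3, runs across its neighbors. Hoxb1 (chr11:96365752-96368256), Hoxa2 (chr6:52162417-52164831), Hoxa5 (chr6:52201754-52204587) and Hoxc4 (chr15:103018934-103036852) share no exon bases with another gene of the clusters.

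Antisense RNAs of the clusters were detected in several populations, and whether they shared cells with their sense genes was not tested. Hoxb3os was found in 18 of 51 Rfx4-high and 5 of 31 Rfx4-low cells, and Hoxb5os in 11 of 20 Epcam-low and 2 of 66 Epcam-high dorsal cells. Hoxaas3 was found in 15 of 51 Rfx4-high and 4 of 20 Epcam-low dorsal cells. In the ventral bud 1 of 27 cells had Hoxaas3, although no coding Hox gene was read. In Afp-high liver cells all 5 RNAs were at 0.

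Several Hox cofactors were higher in the Hox-rich cells, and some were also detected where Hox genes were not. Of 9 Meis, Pbx and Pknox genes, 5 were higher by at least 1 and 0 lower in Rfx4-high than in Rfx4-low cells (16.1% and 10.2% of all measured genes), among them Meis2 (6.37 ± 2.29 and 3.72 ± 3.07) and Pknox2 (6.75 ± 2.22 and 4.16 ± 3.33). In Epcam-low against Epcam-high dorsal cells, 6 of 9 were higher on plate 2A and 4 of 9 on plate 2B (30.6% and 25.8% of all measured genes), with Meis2 higher by 3.94 and 2.75, and Pbx4 was lower by 1.99 and 1.44. In Col1a1-high against Col1a1-low cells 1 of 6 measured was higher, a share near the 19.5% of all genes. It was Meis1 (7.79 ± 3.29 and 1.04 ± 2.25). Meis1 was detected in 15 of 27 ventral bud cells and 10 of 46 Afp-high liver cells, where Hox genes were at 0.

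Regulators upstream of Hox genes differed between the foregut populations, mainly those of retinoic acid signaling. Of 11 measured, 6 were higher and 1 lower in Rfx4-high cells, beside 16.1% and 10.2% of all measured genes. The binding protein Crabp2 was at 10.73 ± 1.99 and 6.20 ± 4.63, Crabp1 at 8.20 ± 2.37 and 4.76 ± 3.93, and the receptor Rarb at 6.58 ± 2.41 and 3.88 ± 3.61. On the dorsal plates Rarb was higher by 3.11 in Epcam-low cells on plate 2A and by 0.01 on plate 2B. In the ventral bud against the Epcam-high dorsal cells 1 of 8 was higher and 3 lower, which is near the 34.6% of all measured genes that were lower, with the receptor Rara at 2.57 ± 3.44 and 5.21 ± 3.20.

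Of the chromatin regulators of the Hox clusters, 0 of 13 measured differed by at least 1 in the foregut. On the dorsal plates 3 of 14 were higher in Epcam-low cells and 3 lower on plate 2A, and 5 of 15 were higher and 2 lower on plate 2B. These counts are near the shares of all measured genes, 30.6% higher and 18% lower on plate 2A and 25.8% and 18.2% on plate 2B. Ezh2, the methyltransferase of the Polycomb complex that silences Hox genes, was higher in the Epcam-low cells by 1.56 and 2.19. The ParaHox gene Pdx1 was listed at 0 in all Epcam-low and Col1a1-high cells, and at 4.03 ± 3.90 and 3.94 ± 4.23 in the Epcam-high cells of plates 2A and 2B.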

How the data were processed

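Sorted single cells with green fluorescence were lysed on plates, and libraries were made with Nextera XT reagents, per the labels. The submitters' processing notes name STAR 2.5.3, Cufflinks, Cuffdiff 2.2.1 and the build GRCm38, with no roles. Counter, annotation, size factors and filters: not given in the sources used here. Log2 values for 20474 genes were deposited in 1 table, 76.7% of its entries being empty. With the log2 undone and 1 subtracted, 1647510 of 1647530 deposited values were whole reads times a factor per cell (within 0.01). They are read as log2(reads / size factor + 1), and empty entries as 0.

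From these values, detection at 5 normalized reads (2.58 on the log2 scale), the number of Hox genes per cell and the highest paralog group were computed for 11 populations, with exact Clopper-Pearson 95% intervals, and 3 counts of the total as the limit for a share of 0. Differences are of mean log2(normalized reads + 1). A gene was called measured where either population's mean reached 1, and higher or lower from a difference of 1. Depth ran from 510222 to 3431728 recovered reads per cell. Cells are not replicates, so no test, SE or p-value was computed. Members named in full had to be present in 25% or more of a population's cells, and up to 4 genes of each other list are named by size of difference, with others named where a count called for it after values were seen. Genes, populations and lists were chosen with earlier results of these data known. Doublets were not called. Some genes and the results that rest on them are not reported here, though counts over the 23 include every member. Coordinates and exon lengths are from GENCODE M21 on GRCm38, and promoters from RefSeq (GRCm38.p6).

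Alternatives were any read or 20 reads as the limit, pseudocounts of 0.1 and 10, no filter on low members, median-of-ratios scaling over 3342 genes, 5 reads for each splitting marker, cells with 2000 genes, with Prox1 or without markers of other types, each dorsal plate alone, and reads thinned to 500000. Chosen after seeing the data were leaving out the Epcam-high cells with mesenchyme markers, and Rfx4-low cells with Crabp1 below 5. The steps were tested on simulated data. Tools were python 3.11.15, numpy 2.4.6, pandas 2.3.3, scipy 1.17.1 and matplotlib 3.10.9.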

Additional observations from a re-analysis of the deposited data

How the results depend on the processing

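Of 358 values under alternatives, 334 stayed within the spread between cells, the counting interval or 1.5 times the count, and 24 moved. Whether a direction reversed was not scored. The number of Hox genes higher by at least 1 followed the pseudocount: at 0.1 it was 10 in the foregut and 3 in the liver bud, and at 10 it was 2 in the foregut, 9 on dorsal plate 2A, 6 on plate 2B, 0 in the liver bud and 4 at E14.5. Genes lower against the dorsal cells numbered 15 for E14.5 and 3 for the ventral bud at 0.1, and 7 for the liver and 0 for the ventral bud at 10. With plate 2B alone 5 were lower in the ventral bud. With 5 reads for each splitting marker 2 genes were higher in Afp-low cells, and 48 Afp-high cells had a mean of 0.0208 Hox genes. With 20 reads as the limit the share of Epcam-high cells of plate 2A with a Hox gene was 39%, and Epcam-low cells of plate 2B had 5.62 genes.

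Among Rfx4-low cells, the share was 40% and the median highest group 1.5 in the 10 cells without markers of other types, 23.1% and 1 in the 13 with Crabp1 below 5, and the median was 2 in cells with Prox1. Without markers of other types, the share was 100% in 5 Epcam-low cells of plate 2A and the median highest group 1 in Col1a1-low cells. The share was 100% in the 10 Col1a1-high cells with Prox1. Causes were not tested. All 47 values at thinned depth and all 16 under median-of-ratios scaling stayed within the limits given above for a value that did not move.

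No paired analysis was possible because the labels name no animal and the results come from no test. Each group is 1 sample, the populations rest on 1 gene each, and 16 annotated Hox genes are not analysed here. Small populations (7, 13 and 15 cells) give wide intervals.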

Other observations

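Beyond the Hox genes, 5111 genes were compared: those present in 10% or more of cells in each of the 6 populations with Hox genes and 20 or more cells. They were ranked by their correlation with the number of Hox genes per cell. Among the 10 genes with the highest mean correlation were Nusap1, Plk1, Ckap2l, Melk, Cenpe, Kpna2, Cks2, Dek and Ncapg. Nusap1 had a mean Pearson r of 0.355 over the 6 populations, from 0.210 to 0.569, and the mean for Ncapg, the last of the 10, was 0.305. The signs were not the same throughout: Melk ran from -0.146 to 0.666 and Ckap2l from -0.026 to 0.595, each negative in the Rfx4-high cells. The cells of a population share a plate and differ in depth, so these weak correlations are given as a description.

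Skap2, which lies beside cluster a, was higher in Rfx4-high than in Rfx4-low cells by 2.73 (6.10 ± 2.42 and 3.37 ± 3.31), and in Epcam-low than in Epcam-high dorsal cells by 3.44 on plate 2A and 3.10 on plate 2B. It was detected in 3 of 27 ventral bud cells and 25 of 66 Epcam-high dorsal cells.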
